A study of Mus musculus with 14 samples.

Results

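The 33 genes described here serve the antioxidant programme of the transcription factor NRF2, glutathione metabolism and iron handling in mouse macrophages. They were taken from the deposited counts by matching Ensembl identifiers to a list of symbols, and all 33 were found among 47937 genes. Poly(A) RNA of wild-type (WT) bone marrow-derived macrophages, cells grown in culture from marrow precursors, had been sequenced from 14 libraries made with the Illumina stranded mRNA preparation. Of these, 5 came from macrophages given mast cell supernatant (batches 1, 2, 3, 1 and 3), 3 from macrophages given mast cell intracellular trap supernatant (1 per batch) and 6 from untreated macrophages (2 per batch). Both supernatants were applied for 3.5 h, and the study asked how products of mast cells, or of mast cells holding trapped neutrophils, act on macrophages. The labels do not say how the supernatants were prepared, whether untreated cells received medium, what a batch was, or whether replicates came from separate cultures or animals. The p-values below therefore reflect only how far these libraries vary, which may be technical.

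NRF2 is held at a low level by KEAP1, an adaptor that brings it to a ubiquitin ligase, and is released when reactive molecules modify KEAP1 or when the autophagy receptor p62, encoded by Sqstm1, binds KEAP1 in its place. Freed NRF2 pairs with a small MAF protein on antioxidant response elements and raises genes for making glutathione, removing peroxides, supplying NADPH, degrading haem and storing iron. In macrophages the same genes are known for handling oxidants and haem taken up with engulfed red cells.

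Total counts per library were 11729073 to 16123421 with mast cell supernatant, 12414738 to 16491536 with trap supernatant and 13455686 to 22720419 in untreated macrophages. The 33 genes took up 3.08% to 3.96% of the counts of a library, most of it from the ferritin chains Fth1 and Ftl1. The 10 macrophage markers summed to 9134 to 20560.4 CPM (TMM-normalised counts per 1000000) with mast cell supernatant, 9165 to 19346 CPM with trap supernatant and 9299 to 18994 CPM in untreated macrophages. One of them, the lysozyme gene Lyz2, separated the batches. It had 10071 and 10886 CPM in batch 1, 4795 CPM in batch 2, and 0.170 and 0.0829 CPM in batch 3 with mast cell supernatant. It had 10174, 5205 and 0.161 CPM in batches 1, 2 and 3 with trap supernatant, and in untreated macrophages 9983 and 10171 CPM in batch 1, 4719.9 and 4725 CPM in batch 2, and 0.0616 and 0.0599 CPM in batch 3. Each batch 3 library thus held only 1 or 2 Lyz2 counts, although the labels give WT for all 14 libraries and mention no allele at this gene, the site of the Cre insertion in the widely used LysM-Cre mice. A batch therefore cannot be told apart from a possible difference of genotype. The other 9 macrophage markers summed to 7063 to 9675 CPM with mast cell supernatant, 7614 to 9172 CPM with trap supernatant and 7157 to 10125 CPM in untreated macrophages. Mast cell transcripts were present where a supernatant had been given. The 15 mast cell markers summed to 86.9 and 115 CPM in batch 1, 1495 CPM in batch 2 and 305 and 243 CPM in batch 3 with mast cell supernatant. They summed to 89.8, 796 and 2132 CPM in batches 1, 2 and 3 with trap supernatant, and to 7.22 to 9.95 CPM in untreated macrophages, in which Mcpt4, Tpsb2, Tpsab1 and Mrgprb1 were at 0 in all 6 libraries. The 12 neutrophil markers summed to 93.7 to 365 CPM with mast cell supernatant and 103 to 356 CPM with trap supernatant. In untreated macrophages they summed to 118 to 422 CPM. Ly6g was at 0 in all 3 trap libraries, and some libraries of the other groups also had a neutrophil marker at 0. The part of mast cell RNA in the results below was not tested.

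Upstream windows are shown for the 4 genes whose response to mast cell supernatant was unequal between batches, and for Gclm and Prdx1, which carry the searched element and stood at opposite ends in untreated batch 2. They were chosen after the values were seen. Each window is RefSeq sequence of build GRCm38.p6, read 5′ to 3′ on the strand of the gene. Of the 250 bases before the RefSeq start, it shows the longest stretch without an exon of a protein-coding gene. For Sqstm1, whose window held 148 exon bases, only a stretch of 62 bases is shown, and other bases outside exons are left out. Capitals mark the core antioxidant response element TGACNNNGC or its reverse complement. Of 3 Txnrd1 windows only the one with the element is printed, and the start of the Nfe2l2 window did not match an annotated transcript.
Sqstm1 (chr11:50210828-50210889, minus strand): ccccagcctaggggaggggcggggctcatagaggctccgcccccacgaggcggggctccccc
Txnrd1 (chr10:82858956-82859178, plus strand): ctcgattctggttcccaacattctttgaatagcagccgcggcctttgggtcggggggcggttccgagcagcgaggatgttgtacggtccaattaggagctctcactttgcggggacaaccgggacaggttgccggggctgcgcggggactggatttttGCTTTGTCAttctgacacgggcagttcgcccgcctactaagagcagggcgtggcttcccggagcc
Osgin1 (chr8:119436897-119437117, plus strand): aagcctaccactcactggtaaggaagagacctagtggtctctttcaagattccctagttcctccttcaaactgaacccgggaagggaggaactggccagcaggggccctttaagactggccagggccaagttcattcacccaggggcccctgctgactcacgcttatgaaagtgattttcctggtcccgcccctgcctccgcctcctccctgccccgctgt
Nfe2l2 (chr2:75704664-75704913, minus strand): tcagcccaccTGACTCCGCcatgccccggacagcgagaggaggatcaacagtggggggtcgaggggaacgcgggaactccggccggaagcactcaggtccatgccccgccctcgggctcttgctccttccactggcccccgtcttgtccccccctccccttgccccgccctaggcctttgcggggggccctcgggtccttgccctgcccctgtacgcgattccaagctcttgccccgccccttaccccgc
Gclm (chr3:122245307-122245556, plus strand): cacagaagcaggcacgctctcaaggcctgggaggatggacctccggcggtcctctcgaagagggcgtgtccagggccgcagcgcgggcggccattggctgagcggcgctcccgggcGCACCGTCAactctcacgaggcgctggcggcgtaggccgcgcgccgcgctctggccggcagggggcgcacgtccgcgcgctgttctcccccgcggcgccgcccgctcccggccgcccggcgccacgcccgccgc
Prdx1 (chr4:116685349-116685543, plus strand): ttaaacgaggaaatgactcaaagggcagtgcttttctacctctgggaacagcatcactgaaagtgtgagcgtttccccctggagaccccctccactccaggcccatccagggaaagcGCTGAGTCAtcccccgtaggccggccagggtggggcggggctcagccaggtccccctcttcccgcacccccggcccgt

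The element was searched on both strands of the 250 bases before each RefSeq start. It was found in 7 of 38 windows of these genes (18.4%), against 10.2% of all 32851 windows. The 7 genes with a match were G6pdx, Gclm, Gsta3, Mgst1, Nfe2l2, Prdx1 and Txnrd1. Exon bases were kept in this search. The G6pdx window was exon throughout (250 bases) and the Mgst1 window held 211 exon bases, and neither match lay outside exons. The start of the Gsta3 window, like that of Nfe2l2, did not match an annotated transcript. The RefSeq table had windows for 27 of the 33 genes, without Hmox1, Gclc, Gsr, Slc48a1, Slc40a1 and Prdx6. A match describes letters in this window only. Elements farther upstream were not searched.

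Levels were first ordered in untreated macrophages as CPM per kb of exon, the scale on which genes can be set beside each other. The ferritin light chain Ftl1 (7217 CPM per kb) and heavy chain Fth1 (4156 CPM per kb), which form the iron storage shell, stood far above the rest. Next came the peroxiredoxin Prdx1 (991 CPM per kb), the p62 gene Sqstm1 (547 CPM per kb) and the glutathione peroxidase Gpx1 (469 CPM per kb). The lowest 3 were the cystine importer gene Slc7a11 (1.41 CPM per kb), the iron exporter gene Slc40a1 (1.35 CPM per kb) and the glutathione transferase Gsta3 (0.614 CPM per kb). The quinone reductase Nqo1, often used as an NRF2 reporter gene, was at 3.51 CPM per kb. All 33 genes passed the filter on low counts, as did 13061 genes in all. The median of the mean levels over all libraries was 219 CPM for the 33 genes, against 22.6 CPM for all genes tested. Differences are easier to call at higher counts, and the shares of genes given below were not matched for level.

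Mast cell supernatant raised 1 of the 33 genes, the glutathione reductase Gsr, and lowered none, against 4.79% of all tested genes that changed in either direction (625 of 13061). Of all tested genes 2.17% were higher (283) and 2.62% lower (342). The test was edgeR's quasi-likelihood F test with batch in the model and a false discovery rate of 0.05. At an unadjusted p under 0.05, 12 of the 33 passed (36.4%), against 19.1% of all genes. The median log2 difference of the 33 genes was 0.02, against -0.01 over all genes tested, and 21 of the 33 had a positive difference. The 95% interval lay within 2-fold of no difference for 32 of the 33 (90.2% of all genes) and within 1.5-fold for 30 (74.2% of all genes), the exceptions to 1.5-fold being Gsta3, Sqstm1 and Slc40a1. In bulk RNA, fewer cells of a type and less RNA per cell cannot be told apart. With the replicate number as a block over 9 libraries, 84 genes passed in place of 625, and without any batch term 62 did. In those 9 libraries the replicate number is the same as the batch. That block fit therefore differed from the reported fit only in using fewer libraries.

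Trap supernatant changed none of the 33 genes, against 1.72% of all tested genes (224 of 13061, by edgeR's quasi-likelihood test), 0.919% higher and 0.796% lower. At an unadjusted p under 0.05, 4 of the 33 passed (12.1%), against 12.8% of all genes. DESeq2 and limma-voom also called 0 of the 33. The median log2 difference was 0.00, against -0.01 over all genes, and the 95% interval lay within 2-fold of no difference for 33 of 33 (86.8% of all genes) and within 1.5-fold for 29 (71.4% of all genes). With the replicate block 36 genes passed in place of 224.

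Trap supernatant and mast cell supernatant were not distinguished by any of the 33 genes, nor by any of the 13061 genes in edgeR's quasi-likelihood test (0%). At an unadjusted p under 0.05, 2 of the 33 (6.06%) and 569 of all genes (4.36%) passed. DESeq2 called 11 genes and limma-voom 0, none of them among the 33. The median log2 difference of trap from mast cell supernatant was -0.05, with single genes from -0.21 to 0.27. The genes nearest to a difference were Gss, the glutathione synthetase, with 0.756 to 0.992 as the 95% interval of its fold, and Hmox1, the haem oxygenase, with 0.817 to 0.998, both with an adjusted p of 1.

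**Figure D1:**
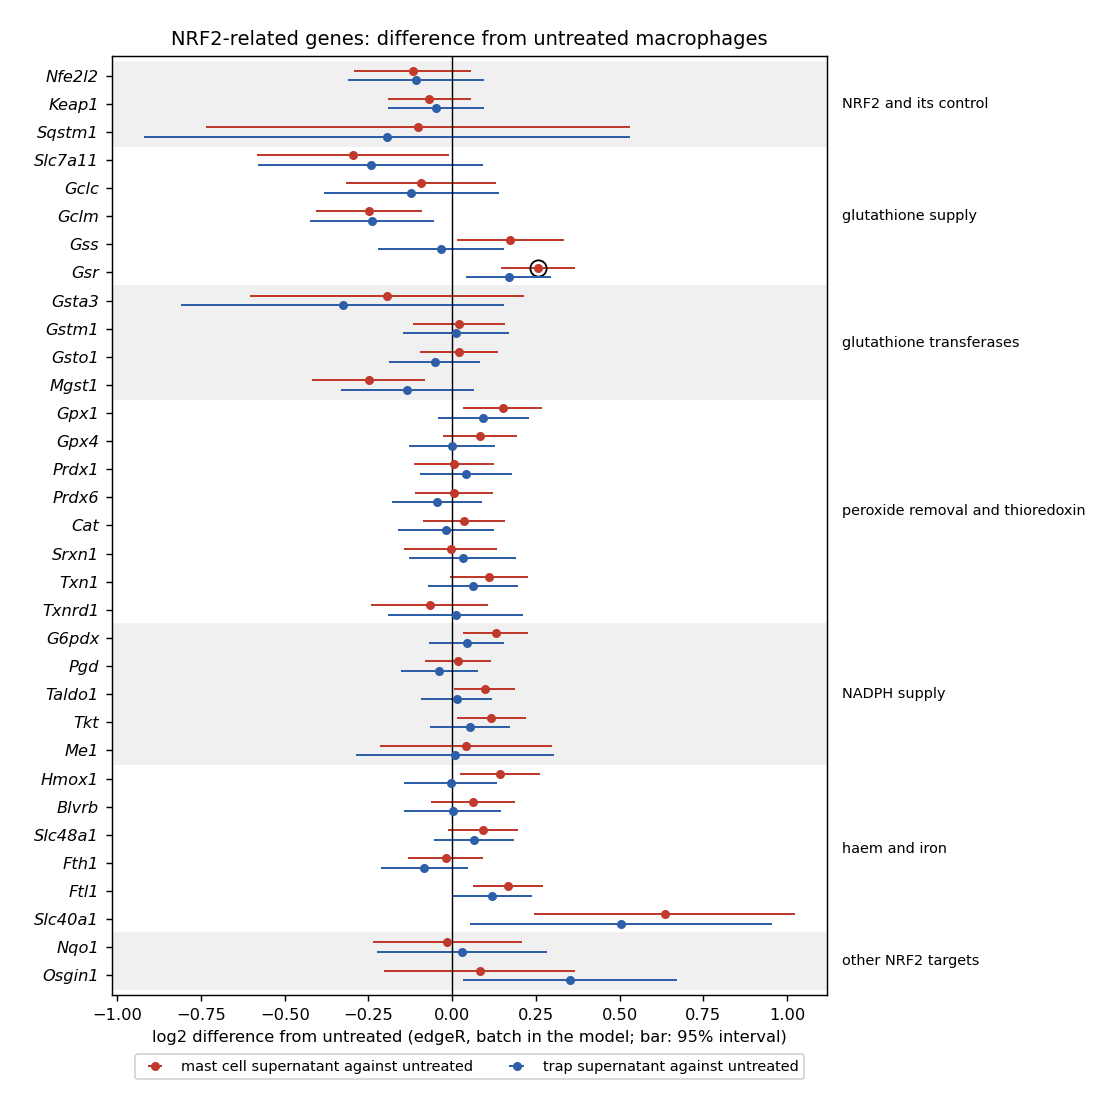
Log2 difference from untreated macrophages for each of the 33 genes, by role, with mast cell supernatant (red, n = 5) and trap supernatant (blue, n = 3) against untreated (n = 6). Points are edgeR estimates with batch in the model, bars are 95% intervals, and the ring marks the 1 estimate past a false discovery rate of 0.05, Gsr with mast cell supernatant. Most points lie within 0.25 of 0, Slc40a1 is the farthest to the right, and Sqstm1 has the widest bars.

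Among NRF2 and its controllers no pooled difference passed. Nfe2l2, which encodes NRF2, averaged 401 ± 163 CPM with mast cell supernatant, 367 ± 159 CPM with trap supernatant and 393 ± 145 CPM in untreated macrophages (SD, n = 5, 3 and 6). Keap1 averaged 67.8 ± 5.71 CPM with mast cell supernatant, 68.0 ± 2.04 CPM with trap supernatant and 70.5 ± 4.15 CPM in untreated macrophages. Its log2 difference was -0.07 ± 0.06 (SE) with mast cell supernatant and -0.05 ± 0.07 with trap supernatant. Sqstm1 differed by -0.10 ± 0.28 with mast cell supernatant and -0.19 ± 0.32 with trap supernatant, and its large errors came with opposite differences in batches 1 and 3, given below.

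Of the 5 genes that supply glutathione, only Gsr passed. Gsr (ENSMUSG00000031584.16, chromosome 8, 33652523 to 33698163 on GRCm38) encodes the reductase that returns oxidised glutathione to its reduced form. Its levels with mast cell supernatant were 44.3 and 41.8 CPM in batch 1, 60.0 CPM in batch 2, and 56.3 and 59.4 CPM in batch 3. With trap supernatant they were 41.6, 54.2 and 54.7 CPM in batches 1, 2 and 3. Untreated macrophages had 38.4 and 40.0 CPM in batch 1, 49.4 and 48.0 CPM in batch 2, and 45.1 and 45.8 CPM in batch 3. Within each batch every supernatant library was above both untreated ones, while across batches the groups overlapped. The log2 difference was 0.26 ± 0.05 with mast cell supernatant, a fold of 1.19 (95% interval 1.11 to 1.29, adjusted p = 0.00913), with 0.13, 0.30 and 0.35 in batches 1, 2 and 3. With trap supernatant it was 0.17 ± 0.06 (adjusted p = 0.218), with 0.09, 0.15 and 0.27 in the 3 batches. The call with mast cell supernatant was lost with the replicate block (adjusted p = 0.162), without a batch term (0.587), without batch 2 (0.0917) and without batch 3 (0.0587), and held in 20 of 24 alternatives, over which the adjusted p ran from 0.000402 to 0.587.

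The other glutathione supply genes did not pass. Gclm, the regulatory subunit of the enzyme of the first step of glutathione synthesis, had a log2 difference of -0.25 ± 0.07 with mast cell supernatant (adjusted p = 0.0709) and -0.24 ± 0.09 with trap supernatant (adjusted p = 0.23), the first passing with no filter on low counts (adjusted p = 0.0415). Gclc, the catalytic subunit of the same enzyme, differed by -0.09 ± 0.10 with mast cell supernatant and -0.12 ± 0.12 with trap supernatant. Slc7a11, whose product brings in the cystine that limits synthesis, differed by -0.30 ± 0.13 with mast cell supernatant (adjusted p = 0.242) and -0.24 ± 0.16 with trap supernatant. Its mast cell supernatant value passed without batch 1 (-0.53, adjusted p = 0.0302) and without mast cell supernatant replicate 4 (-0.45, adjusted p = 0.0172). Gss averaged 18.4 ± 2.05 CPM with mast cell supernatant, 16.0 ± 1.53 CPM with trap supernatant and 16.3 ± 0.588 CPM in untreated macrophages, and did not pass in either comparison.

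Glutathione transferases, which join glutathione to reactive compounds, gave no call. Gstm1 differed by 0.02 ± 0.06 on the log2 scale with mast cell supernatant and 0.01 ± 0.07 with trap supernatant, and Gsto1 by 0.02 ± 0.06 and -0.05 ± 0.06 in the same comparisons. Mgst1, a membrane-bound transferase, differed by -0.25 ± 0.08 with mast cell supernatant (adjusted p = 0.089) and -0.13 ± 0.09 with trap supernatant (adjusted p = 0.601), the first passing without trap supernatant replicate 2 (adjusted p = 0.0451). Gsta3 was scarce, with 0.624 to 4.31 CPM with mast cell supernatant, 1.06 to 3.39 CPM with trap supernatant and 0.906 to 5.39 CPM in untreated macrophages, and its fold intervals were correspondingly wide, 0.658 to 1.16 for mast cell supernatant, and for trap supernatant 0.571 to 1.11.

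The 8 genes for peroxide removal and thioredoxin had pooled log2 differences of -0.07 to 0.15 with mast cell supernatant, and for trap supernatant of -0.04 to 0.09, and none passed. Gpx1, a glutathione peroxidase for soluble peroxides, was the highest at 0.15 ± 0.06 with mast cell supernatant (adjusted p = 0.141, and 0.0336 without mast cell supernatant replicate 2). Gpx4, the peroxidase for lipid peroxides in membranes, averaged 229 ± 18.1 CPM with mast cell supernatant, 213 ± 6.86 CPM with trap supernatant and 214 ± 14.8 CPM in untreated macrophages. Prdx1 and Prdx6, both peroxiredoxins, differed by 0.01 ± 0.06 and 0.01 ± 0.05 with mast cell supernatant, and catalase, Cat, by 0.03 ± 0.06. Sulfiredoxin, Srxn1, which repairs overoxidised peroxiredoxin, differed by 0.00 ± 0.06 with mast cell supernatant and 0.03 ± 0.08 with trap supernatant. Thioredoxin, Txn1, differed by 0.11 ± 0.05 with mast cell supernatant (adjusted p = 0.286).

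Genes of routes that supply NADPH were G6pdx, Pgd, Taldo1 and Tkt of the pentose phosphate pathway and malic enzyme, Me1. They differed by 0.02 to 0.13 with mast cell supernatant and by -0.04 to 0.05 with trap supernatant, with no call. G6pdx, the enzyme of the first step of the pathway, had the smallest adjusted p with mast cell supernatant (0.12), at a log2 difference of 0.13 ± 0.05. Counts of G6pdx share 418 exon bases with Ikbkg on the other strand (71.1 CPM), and the strand setting of the counting is not given in the sources used here. Their counts are therefore uncertain.

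Among haem and iron genes none passed, and Slc40a1 had the largest differences of the 33 genes with both supernatants. Slc40a1 (ENSMUSG00000025993.10, chromosome 1, 45908068 to 45926523) encodes ferroportin, the exporter that releases iron from macrophages. Its levels with mast cell supernatant were 18.6 and 21.4 CPM in batch 1, 17.5 CPM in batch 2, and 20.9 and 17.5 CPM in batch 3. With trap supernatant they were 21.3, 12.9 and 16.6 CPM in batches 1, 2 and 3. Untreated macrophages had 12.5 and 11.6 CPM in batch 1, 8.37 and 7.41 CPM in batch 2, and 11.4 and 21.6 CPM in batch 3. All supernatant libraries stood above the untreated ones in batches 1 and 2, and in batch 3 the higher untreated library, replicate 6, stood above all 3 supernatant libraries. The log2 difference was 0.63 ± 0.18 with mast cell supernatant, a fold of 1.55 (1.19 to 2.03, adjusted p = 0.0662), and 0.50 ± 0.21 with trap supernatant, a fold of 1.42 (1.04 to 1.94, adjusted p = 0.328). Within batches 1, 2 and 3 it was 0.73, 1.14 and 0.28 with mast cell supernatant and 0.82, 0.71 and 0.08 with trap supernatant. Without untreated replicate 6, it was 0.86 with mast cell supernatant (adjusted p = 8.77e-05) and 0.71 with trap supernatant (adjusted p = 0.00291). Mast cell supernatant also passed with the replicate block, at 0.84 (adjusted p = 0.0225), with limma-voom (adjusted p = 0.0331), with DESeq2 (adjusted p = 0.00508) and without batch 3 (adjusted p = 0.000383). Trap supernatant also passed without batch 3, at 0.77 (adjusted p = 0.0062). The replicate block and the fit without batch 3 also leave out untreated replicate 6, so these passes are not separate from its removal. Counting every pass given here, mast cell supernatant passed in 5 of 24 alternatives, with adjusted p up to 0.348, and trap supernatant in 2 of 24.

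Haem oxygenase 1, Hmox1, which breaks haem down, had 305 and 364 CPM in batch 1, 398 CPM in batch 2, and 362 and 344 CPM in batch 3 with mast cell supernatant. It had 295, 346 and 329 CPM in batches 1, 2 and 3 with trap supernatant, and in untreated macrophages 299 and 289 CPM in batch 1, 316 and 335 CPM in batch 2, and 363 and 345 CPM in batch 3. The groups overlapped, with log2 differences of 0.14 ± 0.06 with mast cell supernatant (adjusted p = 0.17) and 0.00 ± 0.07 with trap supernatant (adjusted p = 0.99). The value with mast cell supernatant passed without batch 3 (0.24, adjusted p = 0.0374). Ftl1 averaged 11030.3 ± 1334 CPM with mast cell supernatant, 10524 ± 778 CPM with trap supernatant and 9671 ± 356 CPM in untreated macrophages, with log2 differences of 0.17 ± 0.05 with mast cell supernatant (adjusted p = 0.0678) and 0.12 ± 0.06 with trap supernatant (adjusted p = 0.393). The value with mast cell supernatant passed by DESeq2 (adjusted p = 0.0453), with no filter on low counts (0.0136), and without mast cell supernatant replicate 2 (0.0318) or 5 (0.0442). Fth1 differed by -0.02 ± 0.05 with mast cell supernatant and -0.08 ± 0.06 with trap supernatant. The pseudogene Ftl1-ps1 held 30.4 CPM, so reads of Ftl1 could be split between copies in counting. Biliverdin reductase B, Blvrb, and the haem transporter gene Slc48a1 differed by 0.06 ± 0.06 and 0.09 ± 0.05 with mast cell supernatant. Nqo1 averaged 4.62 ± 3.44 CPM with mast cell supernatant, 5.65 ± 4.17 CPM with trap supernatant and 5.46 ± 3.34 CPM in untreated macrophages, with log2 differences of -0.01 ± 0.11 and 0.03 ± 0.12 for mast cell and trap supernatant.

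**Figure D2:**
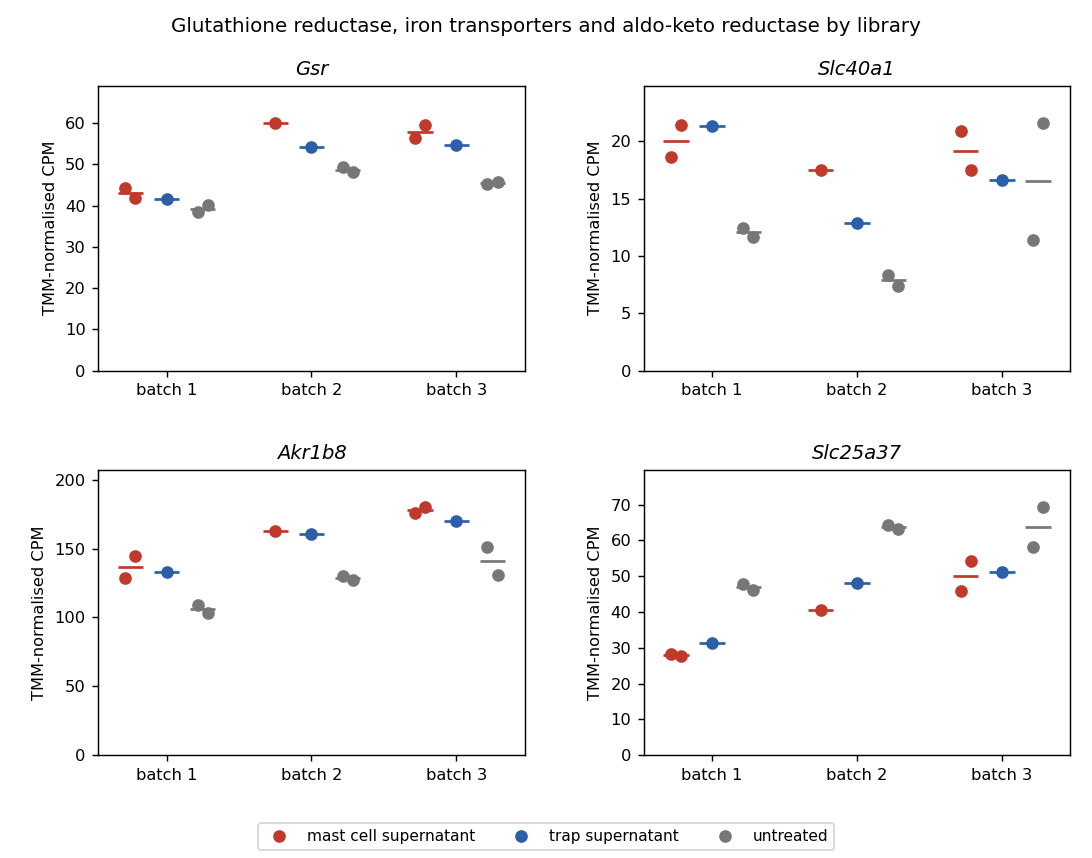
TMM-normalised CPM of Gsr, Slc40a1, Akr1b8 and Slc25a37 in each library, by batch, with mast cell supernatant (red), trap supernatant (blue) and untreated (grey). Points are libraries and lines are means of a group in a batch. Gsr and Akr1b8 were higher with supernatant in every batch, Slc25a37 was lower, and untreated replicate 6 in batch 3 held the highest Slc40a1 value, 21.6 CPM.

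The difference between mast cell supernatant and untreated macrophages was unequal between batches for 4 of the 33 genes (12.1%), against 9.29% of all tested genes, in edgeR's quasi-likelihood test of the batch-by-group terms. The 4 genes were Sqstm1, Nfe2l2, Txnrd1 and Osgin1. With trap supernatant, which has 1 library per batch, none of the 33 passed by edgeR, against 3.75% of all genes. At an unadjusted p under 0.05, 1 did (3.03%, against 13.1% of all genes), Sqstm1, which limma-voom and DESeq2 also called. In mast cell supernatant 15 of the 33 lay above untreated in batch 1 and below it in batch 3 (45.5%, against 23% of all genes), and with trap supernatant 13 did (39.4%, against 22.4% of all genes). Those with 1 sign in all 3 batches numbered 10 with mast cell supernatant (31.5% of all genes) and 9 with trap supernatant (33.3% of all genes). Both comparisons share the untreated libraries. Lyz2 and mast cell marker levels also differed between the batches, as given above, and their part in the unequal responses was not tested. The median log2 difference of the 33 genes with mast cell supernatant was 0.12, 0.02 and -0.01 in batches 1, 2 and 3, and with trap supernatant 0.01, 0.08 and -0.07.

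Sqstm1 (ENSMUSG00000015837.15, chromosome 11, 50199366 to 50210827) had the widest swing. Its levels with mast cell supernatant were 2365 and 3241 CPM in batch 1, 1823 CPM in batch 2, and 1061 and 976 CPM in batch 3. With trap supernatant they were 2345, 1547 and 1242 CPM in batches 1, 2 and 3. Untreated macrophages had 1608 and 1589 CPM in batch 1, 1816 and 1927 CPM in batch 2, and 1770.3 and 2309 CPM in batch 3. In batch 1 every supernatant library exceeded both untreated ones, and in batch 3 every supernatant library was below both. The log2 differences in batches 1, 2 and 3 were 0.79, -0.04 and -0.99 with mast cell supernatant (adjusted p = 0.00407) and 0.55, -0.27 and -0.70 with trap supernatant (adjusted p = 0.101). The inequality with mast cell supernatant passed in all 18 alternatives, and that with trap supernatant in 6 of 16, among them DESeq2 (adjusted p = 0.0148) and limma-voom (adjusted p = 0.0076). Exons of Sqstm1 overlap the antisense gene Mrnip over 580 bases, but Mrnip held only 0.613 CPM.

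Nfe2l2 itself (ENSMUSG00000015839.6, chromosome 2, 75675513 to 75704641) had 534 and 606 CPM in batch 1, 213 CPM in batch 2, and 335 and 317 CPM in batch 3 with mast cell supernatant. Trap supernatant gave 521, 204 and 375 CPM in batches 1, 2 and 3, and untreated macrophages had 523 and 522 CPM in batch 1, 220.3 and 207 CPM in batch 2, and 411 and 473 CPM in batch 3. In batch 3 the supernatant libraries were all below the untreated ones, and in batch 1 mast cell supernatant was above them. The log2 differences were 0.12, -0.01 and -0.44 with mast cell supernatant (adjusted p = 0.00799) and -0.01, -0.07 and -0.24 with trap supernatant (adjusted p = 0.746). The call with mast cell supernatant was lost without its replicate 4 (adjusted p = 0.0527) or replicate 5 (0.0549).

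Txnrd1 (ENSMUSG00000020250.9, chromosome 10, 82833951 to 82897712), the thioredoxin reductase of the cytosol, had 458 and 549 CPM in batch 1, 465 CPM in batch 2, and 346 and 364 CPM in batch 3 with mast cell supernatant. It had 446, 514 and 431 CPM with trap supernatant in batches 1, 2 and 3, and in untreated macrophages 452 and 425 CPM in batch 1, 489 and 479.9 CPM in batch 2, and 457 and 451 CPM in batch 3. Mast cell supernatant libraries were above untreated in batch 1 and below in batches 2 and 3. The log2 differences were 0.19, -0.06 and -0.36 with mast cell supernatant (adjusted p = 0.0103) and 0.03, 0.08 and -0.07 with trap supernatant (adjusted p = 0.897). The call was lost without untreated replicate 4 (adjusted p = 0.0861), mast cell supernatant replicate 3 (0.058) or mast cell supernatant replicate 4 (0.0712).

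Osgin1 (ENSMUSG00000074063.9, chromosome 8, 119434124 to 119446256), an oxidative stress response gene, had another order. Its levels were 16.8 and 17.2 CPM in batch 1, 9.09 CPM in batch 2, and 24.6 and 25.6 CPM in batch 3 with mast cell supernatant, and 16.1, 19.7 and 26.4 CPM in batches 1, 2 and 3 with trap supernatant. Untreated macrophages had 15.5 and 15.5 CPM in batch 1, 13.0 and 14.5 CPM in batch 2, and 20.0 and 19.3 CPM in batch 3. In batch 2 alone the mast cell supernatant library was below both untreated ones, while the trap library there stood above both. The log2 differences were 0.13, -0.60 and 0.36 with mast cell supernatant (adjusted p = 0.00871) and 0.05, 0.52 and 0.43 with trap supernatant (adjusted p = 0.486). The call rests on the single mast cell supernatant library of batch 2, and between batches 1 and 3 alone the adjusted p was 0.423. It was also lost without untreated replicate 5 (adjusted p = 0.0508).

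**Figure D3:**
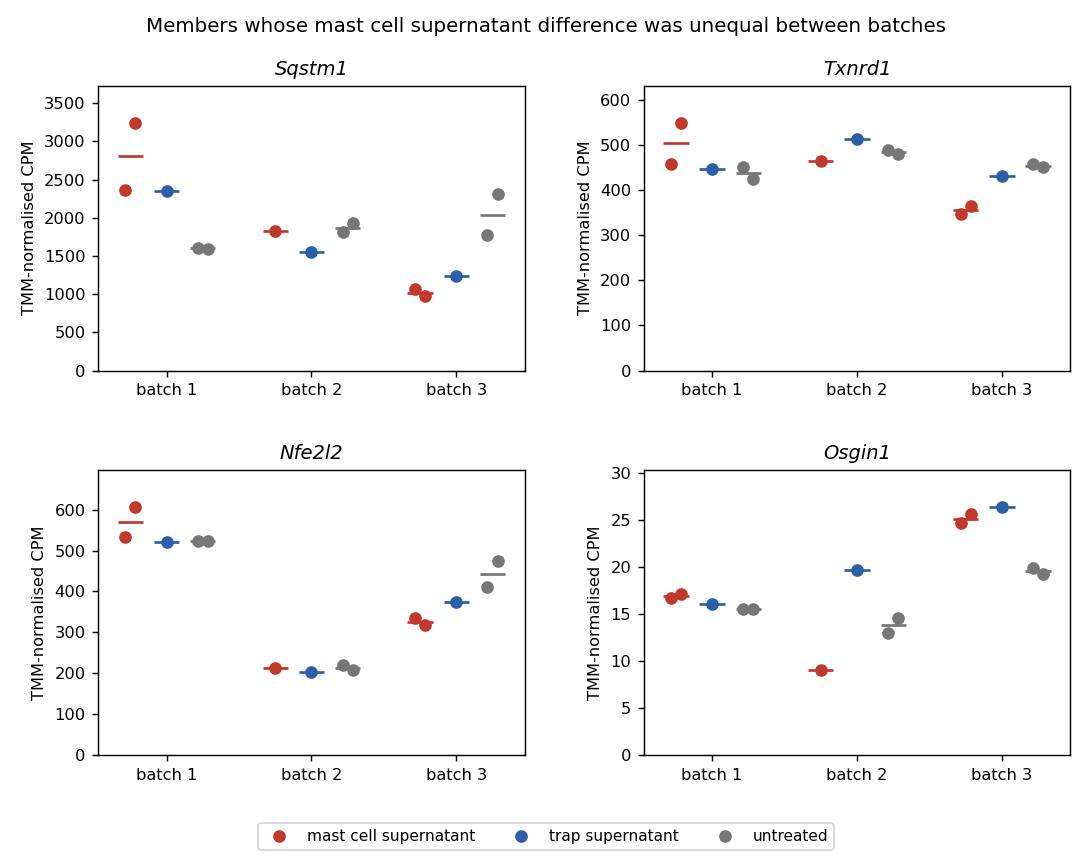
TMM-normalised CPM of Sqstm1, Txnrd1, Nfe2l2 and Osgin1 in each library, by batch, with mast cell supernatant (red), trap supernatant (blue) and untreated (grey). Points are libraries and lines are means of a group in a batch. Sqstm1 with mast cell supernatant lies above untreated in batch 1 and below it in batch 3, and Osgin1 is at 9.09 CPM in the batch 2 library.

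**Figure D4:**
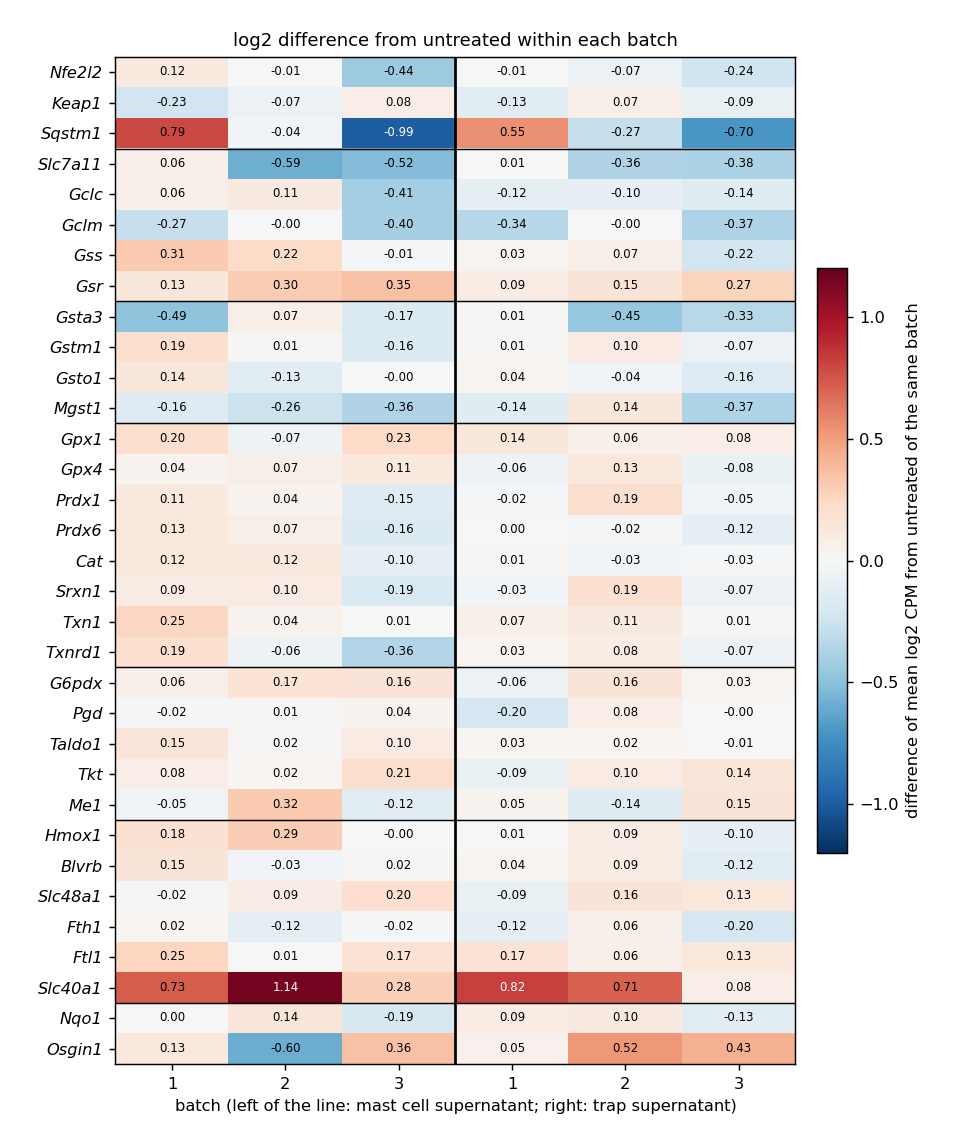
Log2 difference from the untreated libraries of the same batch for the 33 genes, with mast cell supernatant in the left 3 columns and trap supernatant in the right 3, batches 1 to 3 in each. Red is higher and blue lower than untreated. Slc40a1 is red in all 6 columns, and Sqstm1 changes from red in batch 1 to blue in batch 3 with both supernatants.

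Untreated macrophages differed between batches in 24 of the 33 genes (72.7%), against 38.1% of all tested genes, in edgeR's quasi-likelihood test. These shares were not matched for level, and the 33 genes stood higher, at a median of 219 CPM against 22.6 CPM. The range of the 3 untreated batch means was wider than the mast cell supernatant difference in 31 of the 33 (87% of all genes) and wider than the trap supernatant difference in 32 (87.5% of all genes). Its median was 0.41 on the log2 scale (0.35 over all genes), against a median size of 0.09 for the mast cell supernatant difference (0.11 over all genes) and 0.05 for the trap supernatant difference (0.10 over all genes). Other markers differed between the untreated batches too. Beside Lyz2, the other 9 macrophage markers summed to 8694 and 8823 CPM in batch 1, 7157 and 7396.5 CPM in batch 2 and 9299 and 10125 CPM in batch 3. The neutrophil markers summed to 176 CPM in both batch 1 libraries, 118 and 135 CPM in batch 2 and 377 and 422 CPM in batch 3. A list of 12 fibroblast and stromal markers, added after the values were seen, summed to 21.6 and 26.8 CPM in batch 1, 282 and 291 CPM in batch 2 and 18.5 and 34.2 CPM in batch 3, with the collagen gene Col1a1 at 69.1 and 70.3 CPM in batch 2. With mast cell supernatant this list summed to 33.5 and 45.7 CPM in batch 1, 320.2 CPM in batch 2, and 17.3 and 25.6 CPM in batch 3, and with trap supernatant to 38.0, 273 and 18.1 CPM. The part of Lyz2 and of these cell types in the batch differences was not tested.

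Batch 2 was the highest for 11 of the 24 genes (45.8%), against 40.2% of the 4978 genes that differed and 15.3% of all genes tested. These were Nqo1, Gclm, Gsr, Slc48a1, G6pdx, Me1, Taldo1, Cat, Txn1, Pgd and Gsto1. Nqo1 averaged 2.85, 9.73 and 3.80 CPM in untreated batches 1, 2 and 3, and Me1 averaged 7.55, 19.1 and 11.7 CPM. Gclm averaged 57.6, 101 and 72.6 CPM. Gsto1 averaged 55.0, 94.5 and 65.2 CPM. All 4 of these had both batch 2 libraries above every other untreated library.

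Batch 2 was the lowest for 10 of the 24 (41.7%), against 47% of the genes that differed and 17.9% of all genes tested. These were Slc7a11, Srxn1, Prdx1, Gstm1, Fth1, Osgin1, Slc40a1, Gpx1, Mgst1 and Nfe2l2. Mgst1 averaged 49.3, 17.1 and 67.4 CPM in untreated batches 1, 2 and 3, and Nfe2l2 averaged 523, 214 and 442 CPM. Prdx1 averaged 3701, 1972 and 3371 CPM. Fth1 averaged 16717, 9869.7 and 16669 CPM. Transcripts of NRF2 and of the target gene Nqo1 thus stood at opposite ends in batch 2, at 0.409 and 3.36 times their batch 1 levels. Nqo1 does not stand for the other genes, which split both ways. Slc7a11, Srxn1, Prdx1 and Osgin1 were among the 10 lowest there with Nfe2l2, and Gclm, Gsr, Me1 and Txn1 among the 11 highest with Nqo1. Hmox1, Gsta3 and Tkt differed with batch 2 in between. The batch calls for Hmox1, Gsr and G6pdx held in 12, 14 and 14 of 19 alternatives. Those for Slc40a1, Slc48a1 and Pgd held in 16, 18 and 18 of 19, and the remaining calls of the 24 held in all 19. Gclc, Txnrd1, Sqstm1, Ftl1, Blvrb, Gss, Gpx4, Prdx6 and Keap1 did not pass, with Gss the narrowest at 16.0, 16.4 and 16.6 CPM. A range of at least 1 on the log2 scale was seen for Nqo1, Slc7a11, Gsta3, Me1, Mgst1 and Nfe2l2 (18.2% of the 33, against 14.4% of all genes).

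Of 87 measured genes of the same pathways outside the 33, in 5 lists, mast cell supernatant changed 4 (4.6%, against 4.79% of all genes) and trap supernatant 2 (2.3%, against 1.72%) by the same edgeR test. The mast cell supernatant response was unequal between batches for 13 (14.9%, against 9.29%) and that to trap supernatant for 4 (4.6%, against 3.75%). Of 12 further genes that control NRF2, mast cell supernatant lowered 1, Trim21, which encodes a ubiquitin ligase that acts on p62. Trim21 averaged 16.8 ± 1.55 CPM with mast cell supernatant, 22.3 ± 1.84 CPM with trap supernatant and 21.1 ± 0.741 CPM in untreated macrophages (SD), with a log2 difference of -0.34 ± 0.08 with mast cell supernatant (adjusted p = 0.0145) and 0.08 ± 0.08 with trap supernatant. Trap supernatant changed none of the 12 by edgeR, with 0 at an unadjusted p under 0.05 and 0 by limma-voom and DESeq2. The Trim21 call was lost with the replicate block (adjusted p = 0.237), without a batch term (0.0796), without batch 1 (0.109) and without batch 2 (0.145) or its mast cell supernatant library (0.0635). The mast cell supernatant response was unequal between batches for 3 of the 12 (25%, against 9.29% of all genes), namely Mafk and Maff, partners of NRF2 on DNA, and Bach1, a repressor at the same elements. Mafk differed by 1.11, 0.12 and -0.68 in batches 1, 2 and 3 with mast cell supernatant (adjusted p = 3.61e-06) and by 1.11, 0.08 and -0.33 with trap supernatant (adjusted p = 0.000432). Maff differed by 1.70, 0.43 and -1.47 with mast cell supernatant (adjusted p = 0.000979) and by 1.57, -0.40 and -0.61 with trap supernatant (adjusted p = 0.0204). The Maff value with trap supernatant no longer passed without untreated replicate 1 (adjusted p = 0.0887) or 4 (0.0753), or without mast cell supernatant replicate 3 (0.0672) or 5 (0.0673). Bach1 differed by 0.33, 0.32 and -0.13 with mast cell supernatant (adjusted p = 0.0163), a call lost without untreated replicate 1 (0.0547) or 4 (0.0826), or mast cell supernatant replicate 3 (0.102) or 4 (0.0584). Its pooled difference passed without batch 3 (0.32, adjusted p = 0.0072). Mafk and Maff were thus above untreated in batch 1 and below it in batch 3, as Sqstm1 was. Mafg, another small MAF gene among the 12, passed in neither test of unequal responses.

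Of 17 measured genes among 19 other NRF2 target enzymes and transporters, mast cell supernatant raised Akr1b8, an aldo-keto reductase, and lowered Xdh, xanthine dehydrogenase. Akr1b8 had 129 and 145 CPM in batch 1, 162 CPM in batch 2, and 176 and 179.9 CPM in batch 3 with mast cell supernatant. It had 133, 161 and 170.2 CPM with trap supernatant in batches 1, 2 and 3, and in untreated macrophages 109 and 103 CPM in batch 1, 130.2 and 128 CPM in batch 2, and 151 and 131 CPM in batch 3. Within every batch each supernatant library exceeded both untreated ones. The log2 difference was 0.35 ± 0.05 with mast cell supernatant (adjusted p = 0.000475), with 0.37, 0.33 and 0.34 in the 3 batches, and 0.31 ± 0.05 with trap supernatant (adjusted p = 0.00764), with 0.33, 0.32 and 0.28. With the replicate block the adjusted p was 0.115 with mast cell supernatant and 0.201 with trap supernatant, and without a batch term it was 0.304 and 0.873. The trap supernatant call was also lost without batch 1 (0.0857), without batch 2 (0.117) and without trap supernatant replicate 1 (0.0549). Xdh differed by -0.28 ± 0.06 with mast cell supernatant (adjusted p = 0.0149) and -0.26 ± 0.07 with trap supernatant (adjusted p = 0.107). The Xdh call was lost with the replicate block (adjusted p = 0.36), without a batch term (0.931), without batch 1 (0.0847) and without batch 2 (0.172) or its mast cell supernatant library (0.0627). Akr1b8 was the only one of the 17 called with trap supernatant by edgeR, and DESeq2 called Abcc1 as well. Xdh passed with trap supernatant with no filter on low counts (adjusted p = 0.0443) and without untreated replicate 3 (0.0385). The mast cell supernatant response was unequal between batches for Nqo2, a quinone reductase related to Nqo1, at 0.06, 0.10 and 0.56 in batches 1, 2 and 3 (adjusted p = 0.0407), a call that DESeq2 did not make (0.138) and that was lost when any 1 of 8 libraries was left out (0.0505 to 0.142).

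Of 22 measured genes among 24 other iron and haem genes, both supernatants lowered Slc25a37, which encodes mitoferrin-1, an importer of iron into mitochondria. Its levels with mast cell supernatant were 28.2 and 27.7 CPM in batch 1, 40.6 CPM in batch 2, and 45.9 and 54.2 CPM in batch 3, and with trap supernatant 31.3, 48.2 and 51.1 CPM. Untreated macrophages had 47.8 and 46.2 CPM in batch 1, 64.2 and 63.3 CPM in batch 2, and 58.1 and 69.2 CPM in batch 3, above every supernatant library of the same batch. The log2 difference was -0.57 ± 0.08 with mast cell supernatant (adjusted p = 0.000377), with -0.75, -0.65 and -0.35 in the 3 batches, and -0.44 ± 0.09 with trap supernatant (adjusted p = 0.0171), with -0.59, -0.40 and -0.31. The call with mast cell supernatant was lost only without a batch term (adjusted p = 0.328), in 1 of 24 alternatives. The call with trap supernatant was lost with the replicate block (0.191), without a batch term (1), without batch 1 (0.187), without batch 2 (0.143), and without trap supernatant replicate 1 (0.111) or 3 (0.1). Limma-voom and DESeq2 also called Alas1, which encodes the enzyme of the first step of haem synthesis, with mast cell supernatant, where edgeR gave -0.43 ± 0.12 (adjusted p = 0.0615). Without batch 1, Lcn2 passed with mast cell supernatant (-0.88, adjusted p = 0.0016) and with trap supernatant (-0.98, adjusted p = 0.007). The response to mast cell supernatant was unequal between batches for 5 of the 22 (22.7%, against 9.29% of all genes), of which the 4 with the smallest adjusted p were Lcn2 (0.94, -0.83 and -0.91 in batches 1, 2 and 3, adjusted p = 0.000101), Slc11a2 (0.12, -0.05 and -0.55, adjusted p = 0.000348), Steap3 (-0.08, 0.04 and 0.57, adjusted p = 0.00699) and Ncoa4 (0.19, 0.10 and -0.37, adjusted p = 0.0116). The Steap3 call was lost without mast cell supernatant replicate 3 (adjusted p = 0.0531), and the Ncoa4 call without untreated replicate 1 (0.061) or mast cell supernatant replicate 4 (0.0636) or 5 (0.0665). Slc11a2 and Lcn2 also responded unequally to trap supernatant, with adjusted p of 0.00961 and 0.0111, lost without untreated replicate 4 (0.0766 and 0.0772) and, for Slc11a2, without untreated replicate 1 (0.0716). Lcn2 encodes a protein that carries iron bound to siderophores, made by neutrophils and macrophages, Slc11a2 an importer of ferrous iron, Steap3 an iron reductase and Ncoa4 the receptor that takes ferritin to lysosomes.

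Neither supernatant changed any of 20 measured genes among 25 other glutathione genes or of 16 measured genes among 17 other superoxide dismutase, peroxiredoxin and thioredoxin genes. For the glutathione genes 0 passed at an unadjusted p under 0.05 with either supernatant, and for the other list 5 did with mast cell supernatant and 1 with trap supernatant, where 19.1% and 12.8% of all genes did, while limma-voom and DESeq2 called 0 in both. Their median log2 differences were 0.06 and 0.08 with mast cell supernatant and 0.04 and 0.02 with trap supernatant. Within these lists the mast cell supernatant response was unequal between batches for Chac1, which encodes a glutathione-degrading enzyme, and Slc3a2, and for Sod2 and Txnip, while limma-voom and DESeq2 did not call Chac1 (adjusted p = 0.0864 and 0.103), whose call held in 9 of 18 alternatives. Sod2, the mitochondrial superoxide dismutase, differed by 0.22, -0.23 and -0.65 in batches 1, 2 and 3 (adjusted p = 0.000237), and Txnip, an inhibitor of thioredoxin, by 0.00, -0.91 and 0.36 (adjusted p = 4.61e-06, or 0.0548 between batches 1 and 3 alone). Slc3a2, the partner chain of the Slc7a11 product, differed by 0.44, 0.02 and -0.09 (adjusted p = 0.0307), a call lost without any 1 of untreated replicates 1, 4 and 5 (0.18, 0.084 and 0.0631) or of mast cell supernatant replicates 4 and 5 (0.224 and 0.103). Trap supernatant differed from mast cell supernatant in no gene of these 5 lists by edgeR, limma-voom or DESeq2. At an unadjusted p under 0.05, edgeR had 1 gene in each list except that of target enzymes and transporters, which had 0.

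Without a supernatant, the further lists also differed between batches, in 4 of the 12 control genes, 12 of the 17 target enzymes and transporters, 7 of the 20 glutathione genes, 10 of the 16 genes of the superoxide dismutase list and 13 of the 22 iron and haem genes, against 38.1% of all tested genes. The epoxide hydrolase gene Ephx1 averaged 97.9, 48.0 and 112 CPM in untreated batches 1, 2 and 3. Abcc1, which encodes an exporter of glutathione conjugates, averaged 199, 324 and 232 CPM. Alas1 averaged 853, 305 and 521 CPM, and Mafk averaged 58.3, 58.5 and 85.9 CPM. Gstm2 averaged 4.10, 1.46 and 5.07 CPM, and Txnip averaged 443, 237 and 371 CPM.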

How the data were processed

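Gene counts of 14 libraries were analysed as deposited. The authors counted reads per gene with featureCounts 2.0.0 on build GRCm38, per the submitters' processing notes, and the aligner, annotation and strand setting were not given in the sources used here. Libraries were grouped by title and given batches 1 to 3 from the labels' descriptions. Of 47937 genes, 13061 passed edgeR's filterByExpr filter. TMM-normalised counts were tested in edgeR 4.0.16 (R 4.3.3) with the robust quasi-likelihood F test on group and batch, all 14 libraries sharing 1 estimate of spread, and Benjamini-Hochberg adjustment over all genes tested. A model with 1 mean per group and batch tested, by F tests with 2 degrees of freedom, whether responses were unequal between batches and whether untreated batches differed. Standard errors are those implied by the F statistic, and differences within a batch use log2 CPM with a prior count of 1. Exon lengths, coordinates and overlaps come from GENCODE on GRCm38. The code was tested on simulated data.

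Alternatives were DESeq2 size factors, no filter, limma-voom (limma 3.58.1), DESeq2 1.42.0, no batch term and a replicate block. The replicate block equals the batch term, fitted on 9 libraries only. Further alternatives were only the 2 groups compared, and leaving out each library and each batch. The test of unequal responses to a supernatant could not leave out the only library of that supernatant in a batch. These were mast cell supernatant replicate 2 and all 3 trap libraries. Leaving out batch 2 in the test of unequal responses, fitting only the untreated libraries and the stromal marker list were added after seeing the data. The 33 genes and the further lists were chosen with earlier results of these data known. All 33 genes are named, and of each further list the genes past the threshold, at most the 4 with the smallest adjusted p per comparison, with examples for untreated batches.

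Replicates 1 to 3 of each group fall in batches 1 to 3 by the labels, so their numbers pair libraries of a batch. Deviations from the group means correlated at 0.298 to 0.71 over 9 same-numbered pairs and at -0.592 to 0.173 between different numbers. Same-numbered pairs share a batch and the others do not, so these values cannot show a pairing beyond batch. Libraries of a group and batch differed by more than sampling noise (chi-square per degree of freedom 1.77 to 14 over genes), so none was taken as a repeat of another. Library totals set the precision of counts, and means are given with the SD between libraries.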

Additional observations from a re-analysis of the deposited data

Results flagged for a closer look

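In groups of 5 or 6 libraries, 1 library stood apart from the others of its group, by Dixon's test at 95%, for 8 of the 66 sets of values examined. The groups mix batches and the sets share libraries, so this number cannot be set against a chance rate. In 7 of the 8 sets the library apart was mast cell supernatant replicate 2, the only library of that group in batch 2. Its values were 10.7 CPM for Nqo1 (2.74 to 3.40 in the other 4 libraries), 101 CPM for Gclm (45.0 to 56.7), 9072 CPM for Fth1 (15267 to 17653), 679.6 CPM for Taldo1 (489 to 537), 421 CPM for Cat (282 to 319), 14.2 CPM for Mgst1 (44.2 to 56.4) and 86.4 CPM for Gsto1 (58.9 to 66.2). The 2 untreated libraries of batch 2 had 10.1 and 9.40 CPM of Nqo1, 103 and 99.6 CPM of Gclm, 9462 and 10278 CPM of Fth1, 642 and 702 CPM of Taldo1, 396 and 380.3 CPM of Cat, 16.5 and 17.7 CPM of Mgst1, and 94.8 and 94.3 CPM of Gsto1, on the same side as that library for all 7 genes. The eighth was Slc40a1 in untreated replicate 6, at 21.6 CPM against 7.41 to 12.5 CPM in the other 5 untreated libraries.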

How the results depend on the processing

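Gsr with mast cell supernatant, the only pooled difference of the 33 genes that passed, stayed positive in all 24 alternatives. The tests of unequal responses and of untreated batches give no direction that could turn. Counted over genes and alternatives, the sign of values that did not pass changed 67 times with mast cell supernatant. It changed 73 times with trap supernatant and 61 times between the supernatants, while 706, 717 and 731 values kept both sign and call. Of the 33 genes, 1 changed with mast cell supernatant in the fit as reported, against 3 with no filter on low counts, 2 by limma-voom, 3 by DESeq2, 0 without a batch term, 2 without batch 1, 0 without batch 2, 2 without batch 3 and 1 to 3 when a library was left out. With trap supernatant 0 changed, against 1 without batch 3 and 0 to 1 when a library was left out, and 0 differed between the supernatants whichever library was left out. Unequal responses to mast cell supernatant numbered 4, against 7 with no filter and 2 to 9 when a library was left out. For trap supernatant they numbered 0, against 2 with no filter, 1 by limma-voom, 1 by DESeq2 and 0 to 4 when a library was left out. Untreated batches differed in 24, against 18 to 25 when a library was left out and 23 in a fit of the untreated libraries alone.

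Over all genes, 625 changed with mast cell supernatant, against 62 without a batch term, 84 with the replicate block, 231 without batch 2 and 449 to 751 when a library was left out. With trap supernatant 224 changed, against 409 by DESeq2, 15 without a batch term, 36 with the replicate block, 116 without batch 1, 88 without batch 2 and 97 to 280 when a library was left out. Between the supernatants 0 differed, against 11 by DESeq2, 22 with only these 2 groups, 1 without batch 3 and 0 to 3 when a library was left out. Unequal responses to mast cell supernatant numbered 718 to 2417 when a library was left out. Those to trap supernatant numbered 490, against 892 with no filter and 298 to 1350 when a library was left out. Mast cell supernatant replicate 2 was never left out for the mast cell supernatant test, nor any trap library for the trap supernatant test. Untreated batches differed in 3207 to 6232 genes when a library was left out. The causes were not tested. Among the 33 genes the replicate block changed the calls for Gsr and Slc40a1 with mast cell supernatant and no other call. With 1 mast cell supernatant library in batch 2 and 1 trap library per batch, a difference within such a batch has no replicate check of its own.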
